A study of Mus musculus with 9 samples.

Results

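The Notch receptors and their membrane-bound ligands were followed across 3 gates of sorted mouse dermal cells. The set was chosen by gene symbol: every row of the deposited table whose symbol field held Notch1, Notch2, Notch3, Notch4, Dll1, Dll4, Jag1 or Jag2. All 8 genes were found, on 8 of the 84809 rows, with 4 receptors and 4 ligands. The cells came from the dermis of newborn mice carrying Krt14 cre and Rosa26-mTmG, a Cre recombinase under the promoter of a basal keratinocyte keratin together with a membrane fluorescence reporter of Cre activity, and all gates shared this genotype. They were used directly after isolation, without culture, and were sorted by their surface level of integrin α6 (CD49f) into the groups CD49f-neg, CD49f-low and CD49f-high, with 3 libraries each. The labels call all 3 groups mesenchymal. They do not say how many animals a library holds or whether replicates came from separate animals, so the p-values measure only the spread between these libraries, which may be technical. Values are FPKM (fragments per kilobase of transcript, scaled to the mapped fragments of the library), a scale on which genes of different length can be compared.

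Notch signalling passes between touching cells. A ligand of the Delta-like or Jagged family on one cell binds a Notch receptor on its neighbour, the receptor is cut by ADAM proteases and then by γ-secretase, and the freed intracellular domain moves to the nucleus, where it joins the DNA-binding protein RBPJ and Mastermind proteins to switch on genes of the Hes, Hey and Nrarp kind. In skin the pathway is known from the epidermis and hair follicle, from the maintenance of melanocyte precursors, and from blood vessels. In vessels, Notch3 is a receptor of mural cells (smooth muscle cells and pericytes), and Dll4, Jag1 and Notch4 are known from endothelium.

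The upstream sequences of the 4 members whose levels set the pattern described below are shown first, so that the gates' results can be read beside them: Notch3 and Jag1, which rose through the gates, Dll1, which was highest in the low gate, and Notch2, which fell. They are RefSeq promoter windows on GRCm38.p6, given from 5′ to 3′ on the strand of the gene and limited to the bases that lie before every annotated start of the gene. For Notch3 this is chr17:32166891-32167140 on the minus strand, for Jag1 chr2:137116645-137116770 on the minus strand, for Dll1 chr17:15376933-15377182 on the minus strand and for Notch2 chr3:98013288-98013526 on the plus strand. Capitals mark the GC box GGGCGG on either strand, a binding motif of Sp family factors.
Notch3: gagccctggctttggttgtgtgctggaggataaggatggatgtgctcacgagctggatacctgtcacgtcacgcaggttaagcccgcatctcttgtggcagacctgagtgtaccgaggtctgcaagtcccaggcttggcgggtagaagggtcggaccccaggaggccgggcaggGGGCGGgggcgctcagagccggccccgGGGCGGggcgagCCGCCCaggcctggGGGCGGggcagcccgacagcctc
Jag1: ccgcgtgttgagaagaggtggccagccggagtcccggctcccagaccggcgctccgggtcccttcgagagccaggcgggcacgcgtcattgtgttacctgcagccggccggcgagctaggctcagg
Dll1: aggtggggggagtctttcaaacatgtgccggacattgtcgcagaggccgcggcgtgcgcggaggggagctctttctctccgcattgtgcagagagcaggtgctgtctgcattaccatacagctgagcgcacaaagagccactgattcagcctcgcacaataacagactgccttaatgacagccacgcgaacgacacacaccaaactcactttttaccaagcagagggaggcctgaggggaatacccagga
Notch2: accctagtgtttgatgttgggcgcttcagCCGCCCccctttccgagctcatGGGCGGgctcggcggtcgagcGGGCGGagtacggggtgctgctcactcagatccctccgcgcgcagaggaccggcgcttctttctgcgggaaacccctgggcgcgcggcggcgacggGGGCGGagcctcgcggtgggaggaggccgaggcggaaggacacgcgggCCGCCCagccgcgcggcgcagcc
The whole windows, from 250 bases before to 50 bases after the start, were searched on both strands for 5 motifs, counting overlapping matches. RefSeq gave 9 windows for the 8 genes, 2 of them for Dll1. The RBPJ core TGGGAA was in 0 of the 9 windows and in 25.6% of all 32851 windows of this length, and the E-box CACGTG, to which Hes and Hey proteins can bind, was in 0 of 9 and in 7.2%. The GC box was in 5 of 9 windows (Notch1, Notch2, Notch3, Dll4 and Jag2) and in 35.7% of all, the CCAAT box (CCAAT) in 2 of 9 (Dll4 and the inner window of Dll1) and in 37.4%, and the TATA box (TATAAA) in 0 of 9 and in 13.6%. These are matches of letters in a short window, not measured binding sites.

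The depth of the libraries was estimated from the low FPKM values of single-exon genes. These piled up at steps from which 1 FPKM over 1 kilobase came to 23.7 to 27.3 fragments, taking the pile-up as a single fragment. The pile-up was sought only within a narrow fixed range, the same for all libraries. A library of very different depth could therefore not have shown, and the fragment estimates given below rest on this range. Of all rows, 20523 had at least 1 FPKM in at least 3 libraries and were tested with limma on log2(FPKM + 1), and a row was called at a Benjamini-Hochberg adjusted p under 0.05. Fold changes on this scale understate those of genes with low FPKM. Between CD49f-low and CD49f-neg, 3160 rows were called, 2623 higher and 537 lower in CD49f-low. The median log2 difference of all rows was 0.21 there, 0.07 between CD49f-high and CD49f-neg and -0.15 between CD49f-high and CD49f-low. After median-of-ratios scaling, which brought these medians to 0.01, 0.00 and -0.01, the calls split into 1117 higher and 1093 lower for low against negative, 2480 and 2232 for high against negative (2844 and 1697 without it), and 1614 and 1331 for high against low (1216 and 2151 without it). Libraries of the same replicate number deviated together from their gate means. Without replicate 1 of every gate, the calls of Dll1 (high against negative) and Notch2 (high against low) were lost, and no other call of a member. The transcript of the sorted antigen, Itga6, averaged 0.475, 5.51 and 19.9 FPKM in the negative, low and high gates. The fibroblast markers Col1a1 (means 6505, 2485 and 2359 FPKM) and Pdgfra (64.3, 56.3 and 22.9 FPKM) were present in every gate, and the leukocyte list (6 genes) summed to 1.59 to 2.78, 2.81 to 3.83 and 1.90 to 3.40 FPKM, of which Cd68 made up 1.82, 2.83 and 2.06 FPKM on average and Ptprc at most 0.00587.

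Of the 8 members, 6 reached the filter and were tested, and 5 of them were called between CD49f-low and CD49f-neg, all higher in CD49f-low, where 15.4% of all tested rows were called, 12.8% higher and 2.62% lower. Between CD49f-high and CD49f-neg all 6 were called, 5 higher and 1 lower, against a background of 22.1% called, 13.9% higher and 8.27% lower. Between CD49f-high and CD49f-low 4 of the 6 were called, 2 higher and 2 lower, against 16.4% called, 5.93% higher and 10.5% lower. The median log2 difference of the 6 was 1.48, 1.36 and 0.30 in these comparisons. The 2 members left out, Notch4 and Dll4, had 0 and 2 libraries at 1 FPKM or more. Jag2 entered with 4 such libraries, 3 of them CD49f-high, and Dll1 with 5, none of them CD49f-neg, so a difference between the gates was built into the way these 2 passed. Notch1, Notch2, Notch3 and Jag1 were above 1 FPKM in all 9 libraries.

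**Figure D1:**
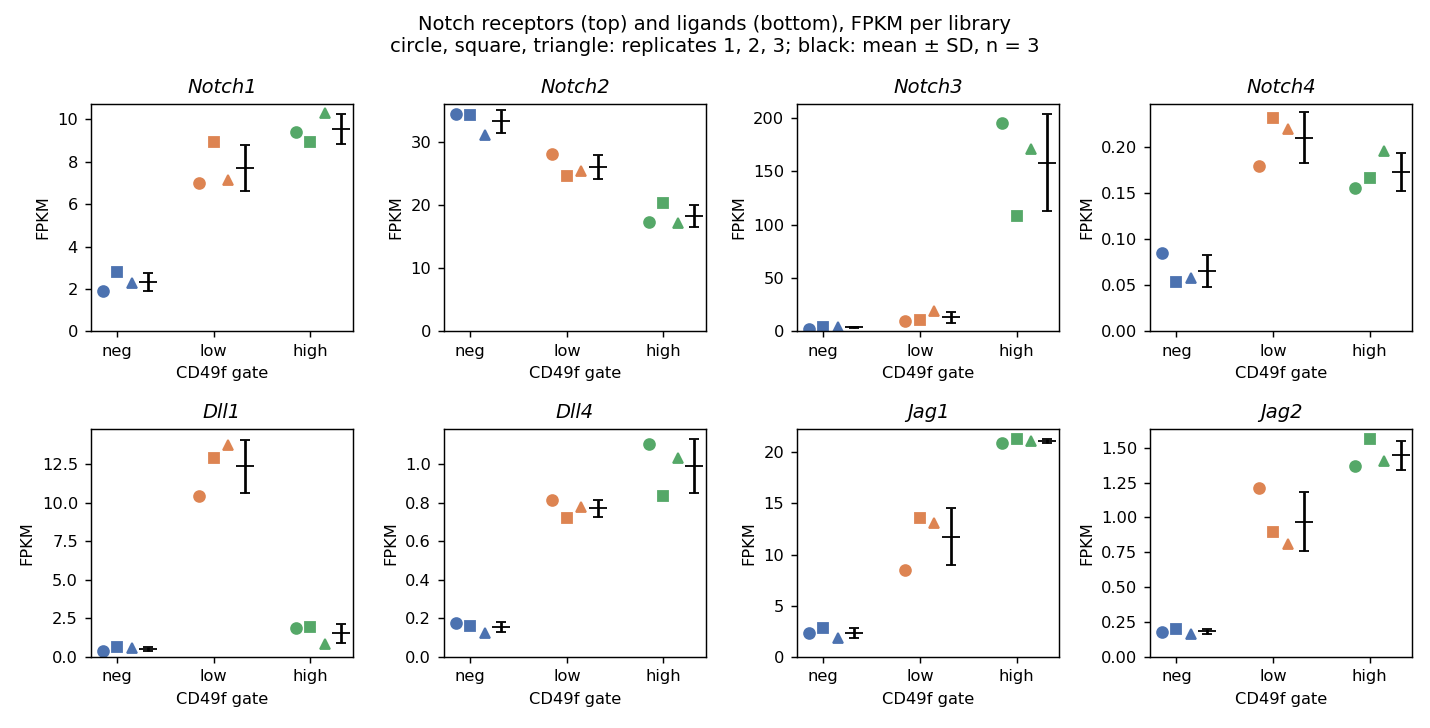
FPKM (vertical axes, each from 0) of the 4 receptors and 4 ligands in the negative, low and high CD49f gates, with 1 symbol per library and the mean ± SD (n = 3) in black. Notch3 lies between 108 and 196 FPKM in the CD49f-high libraries and at 19.2 or less in the others, Dll1 peaks in CD49f-low, Notch2 falls from gate to gate, and Notch4 stays at 0.231 or less.

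Notch3 was the receptor that marked the high gate. Its row covered chromosome 17, 32120820 to 32166880 (GRCm38, minus strand). Its levels were 2.63, 4.42 and 3.91 FPKM in the negative libraries, 9.83, 10.8 and 19.2 in the low and 196, 108 and 171 in the high ones. The gates did not overlap, and CD49f-high replicate 2 was the lowest of its gate. The means were 3.66 ± 0.921, 13.3 ± 5.16 and 158 ± 45.2 FPKM (SD, n = 3), so CD49f-high held 43.2 times the FPKM of CD49f-neg and 11.9 times that of CD49f-low. Notch3 rose by 1.58 log2 units from negative to low (SE 0.29, limma adjusted p = 0.00601), by 3.49 from low to high (adjusted p = 6.92e-05) and by 5.07 from negative to high (adjusted p = 5.00e-06). These 3 calls held in each of the 18 alternatives tried. The annotation places Gm17276, an antisense gene without a row of its own, over 21024 bases of the Notch3 locus, and the labels do not state the strand of the counting, so fragments of the pair cannot be told apart. As in any bulk sample, fewer cells of a type and less RNA per cell cannot be told apart either.

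Notch2 ran the other way. This receptor (chromosome 3, 98013527 to 98150361, plus strand, on a row that also takes in 2 further annotated loci inside the gene) is widely expressed. It stood at 34.5, 34.3 and 31.2 FPKM in the negative libraries, 28.2, 24.6 and 25.5 in the low and 17.3, 20.4 and 17.2 in the high ones. Each gate lay wholly below the one before. Notch2 fell by 0.83 log2 units from negative to high (SE 0.11, limma adjusted p = 0.000462), which is 0.549 times the FPKM of CD49f-neg. From low to high it fell by 0.49 (adjusted p = 0.0124), a call that was lost after median-of-ratios scaling (0.0626), without CD49f-low replicate 1 (0.0521) and without replicate 1 of every gate (0.0777). From negative to low its difference was -0.34 log2 units and missed the threshold (adjusted p = 0.0587). With the replicate numbers as a block it passed (0.0376), as it did when libraries were scaled by median of ratios (0.00339) or quantile-normalized (0.0250), and in a fit on the 6 libraries compared (0.0474).

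Notch1, the receptor best known from the epidermis and from blood cells, was higher in the low and high gates than in the negative gate. Its row covered chromosome 2, 26457903 to 26516663 (minus strand), and also took in 2 lncRNA loci inside the gene. The values were 1.92, 2.79 and 2.30 FPKM in the negative libraries, 6.99, 8.94 and 7.14 in the low and 9.40, 8.94 and 10.3 in the high ones. CD49f-low replicate 2 reached the level of the lowest CD49f-high library, while CD49f-neg stood apart from both. Notch1 rose by 1.38 log2 units from negative to low (SE 0.13, limma adjusted p = 0.000168) and by 1.67 from negative to high (adjusted p = 2.83e-05). The step from low to high was 0.28 log2 units with a 95% interval of -0.02 to 0.59, and was not called (adjusted p = 0.187). The opposite-strand genes 0610009E02Rik and Gm13568 overlap the Notch1 locus by 1488 and 414 bases.

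Notch4, known chiefly from endothelium, was near the limit of what these libraries show. Its row (chromosome 17, 34564268 to 34588503, plus strand) held 0.0851, 0.0534 and 0.0580 FPKM in the negative libraries, 0.179, 0.231 and 0.219 in the low and 0.156, 0.166 and 0.195 in the high ones. Over its longest annotated transcript of 6.59 kilobases this is an estimated 9 to 14 fragments per library in the negative gate, 29 to 39 in the low and 24 to 33 in the high gate. The negative libraries lay below all others, and the low and high gates overlapped. It was not tested in the main fit. With no filter on low values its differences of 0.18 (low minus negative) and 0.14 (high minus negative) were not called (limma adjusted p = 0.204 and 0.329). The opposite-strand pseudogene Gm20462, without a row of its own, overlaps the Notch4 locus by 408 bases, and its fragments cannot be told apart here.

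Jag1 was the ligand that rose with the sorted antigen through all gates. It encodes Jagged 1, and its row covered chromosome 2, 137081456 to 137116644 (minus strand). It stood at 2.31, 2.77 and 1.81 FPKM in the negative libraries, 8.52, 13.6 and 13.1 in the low and 20.9, 21.3 and 21.1 in the high ones. The gates did not overlap, and the CD49f-high libraries varied by an SD of 0.173 FPKM, whereas CD49f-low replicate 1 was below its fellows. Jag1 rose by 1.93 log2 units from negative to low (SE 0.17, limma adjusted p = 1.00e-04), by 0.82 from low to high (adjusted p = 0.0104) and by 2.76 from negative to high (adjusted p = 7.95e-06). All 3 calls held in each of the 18 alternatives. Among the 6 tested members, Jag1 and Notch3 were called upward at both steps, as were 214 of the 20523 tested rows (1.04%).

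Dll1, the Delta-like 1 ligand, was the member of the low gate. Its row covered chromosome 17, 15367354 to 15376872 (minus strand), with 1 lncRNA locus inside it, and the opposite-strand gene A930024N18Rik overlaps it by 1873 bases. It stood at 0.380, 0.604 and 0.597 FPKM in the negative libraries, 10.5, 12.9 and 13.8 in the low and 1.85, 1.90 and 0.817 in the high ones. All CD49f-low libraries lay far above the rest, and CD49f-high lay above CD49f-neg without overlap. CD49f-low held 23.5 times the FPKM of CD49f-neg and 8.12 times that of CD49f-high. Dll1 rose by 3.13 log2 units from negative to low (SE 0.19, limma adjusted p = 1.59e-05) and fell by 2.43 from low to high (adjusted p = 6.11e-05), and both calls held in each of the 18 alternatives. A call up from negative to low and down from low to high was shared by 821 of the tested rows (4%). The smaller difference from negative to high, 0.70 log2 units (adjusted p = 0.0277), was lost in 8 of the 18 alternatives. Among these were the fits without CD49f-neg replicate 1 (0.0720), 2 (0.0595) or 3 (0.0641) and without CD49f-high replicate 1 (0.0871) or 2 (0.0922), and without replicate 1 of every gate (0.152).

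Jag2 and Dll4 followed Jag1 in direction at far lower levels. Jag2, the second Jagged ligand (chromosome 12, 112908590 to 112929495, minus strand), stood at 0.181, 0.198 and 0.165 FPKM in the negative libraries, 1.21, 0.893 and 0.806 in the low and 1.37, 1.56 and 1.40 in the high ones. No library of one gate reached those of another. It rose by 0.73 log2 units from negative to low (SE 0.12, limma adjusted p = 0.00339, and 0.0684 after quantile normalization) and by 1.05 from negative to high (adjusted p = 0.000222). Between low and high the difference of 0.32 was not called (95% interval 0.05 to 0.58, adjusted p = 0.108), but was when libraries were scaled by median of ratios (0.0495) or quantile-normalized (0.0251).

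Dll4, the Delta-like ligand best known from sprouting vessels (chromosome 2, 119325784 to 119335962, plus strand), stood at 0.178, 0.161 and 0.124 FPKM in the negative libraries, 0.812, 0.722 and 0.779 in the low and 1.11, 0.836 and 1.03 in the high ones. Its 3 gates did not overlap, although the lowest CD49f-high library was close to the highest CD49f-low library. By its longest transcript of 3.75 kilobases this was an estimated 13 to 17, 70 to 76 and 82 to 99 fragments per library. The opposite-strand gene Gm14207, without a row of its own, overlaps the Dll4 locus by 411 bases, and its fragments cannot be told apart either. Dll4 was not tested in the main fit. With no filter it was called from negative to low (difference 0.62, limma adjusted p = 0.00729) and from negative to high (0.79, adjusted p = 0.00118), and not from low to high (0.17, adjusted p = 0.428). Counted over all 8 members, tested or not, the libraries of CD49f-neg lay apart from those of CD49f-low in 8 of 8 and from those of CD49f-high in 8 of 8, where 40.5% (34.8% higher, 5.77% lower) and 36.4% (22.5% higher, 13.9% lower) of all tested rows did so. Low and high lay apart in 6 of 8, against 37.2% (10.3% higher, 27% lower).

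**Figure D2:**
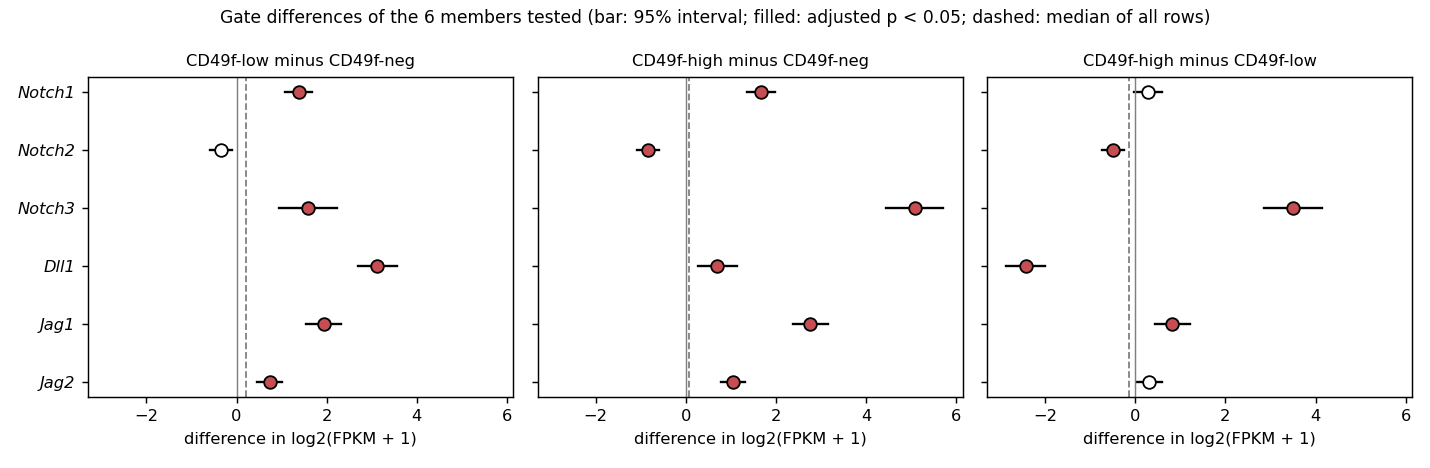
Differences between gates in log2(FPKM + 1) for the 6 members tested (points) with 95% intervals (bars), 1 panel per comparison. Filled points passed an adjusted p of 0.05, the solid line is 0 and the dashed line the median of all 20523 rows. Notch3 moves furthest from negative to high (5.07), Dll1 changes sign between the first panel (3.13) and the third (-2.43), and Notch2 is the member to the left of 0 in every panel.

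Set against each other, Notch2 was the leading receptor in the negative and low gates and Notch3 in the high gate, while Jag1 led the ligands in the negative and high gates and shared the low gate with Dll1. In CD49f-neg, Notch2 made up 84.7% ± 3.07 (SD, n = 3) of the summed FPKM of the 4 receptors, Notch3 9.26% ± 2.20 and Notch1 5.92% ± 0.933. In CD49f-low the shares were 55.5% ± 6.71 for Notch2, 27.6% ± 8.13 for Notch3 and 16.4% ± 3.27 for Notch1. In CD49f-high, Notch3 held 84.2% ± 4.95, Notch2 10.4% ± 3.83 and Notch1 5.31% ± 1.14. The Notch2 share did not overlap between any gates, from 82.5% to 88.2% in the negative gate, 49.0% to 62.4% in the low and 7.79% to 14.8% in the high gate. The receptor sum was 39.4 ± 2.06, 47.3 ± 4.13 and 186 ± 43.9 FPKM in the negative, low and high gates.

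The ligand sum was 3.16 ± 0.527 FPKM in the negative gate, 25.9 ± 4.20 in the low and 25.1 ± 0.634 in the high gate, and the high libraries (24.4 to 25.6) lay within the range of the low ones. Its make-up differed. Dll1 was 48.1% ± 1.97 of the ligand FPKM in CD49f-low, 16.9% ± 4.88 in CD49f-neg and 6.04% ± 2.33 in CD49f-high. Jag1 was 40.6% to 48.3% in CD49f-low, 72.4% ± 4.58 in CD49f-neg and 84.2% ± 2.09 in CD49f-high. Dll4 and Jag2 each stayed between 2.57% and 6.12% in all 9 libraries. Shares within a sum are tied to one another, so they were not tested.

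**Figure D3:**
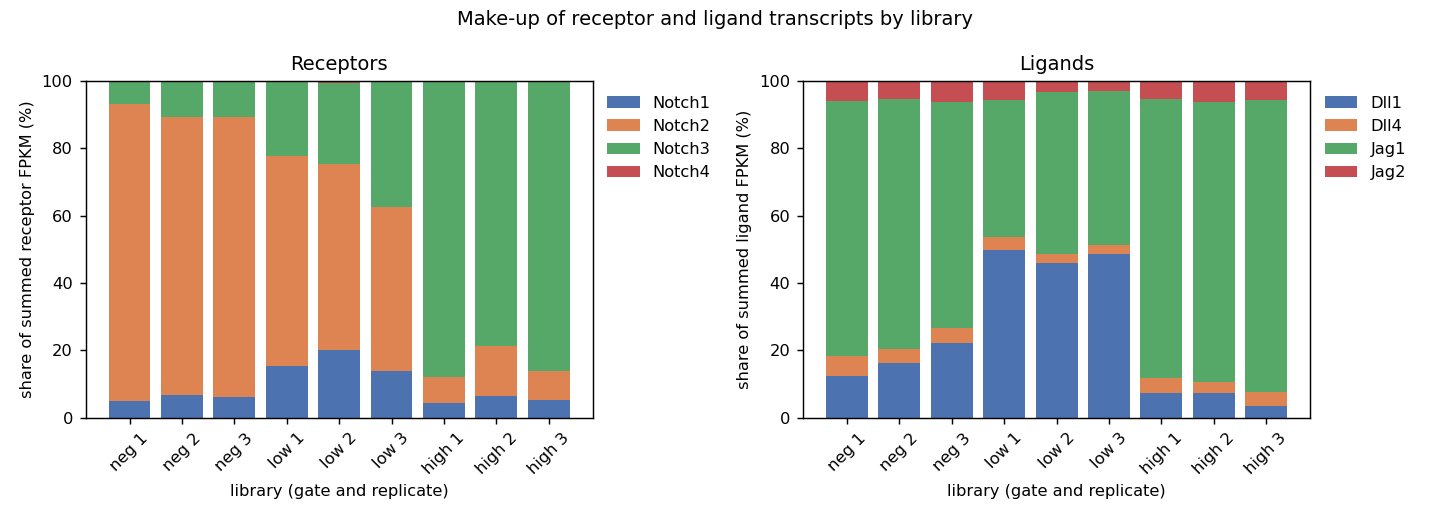
Share of the summed FPKM (vertical axes, %) held by each receptor (left) and ligand (right) in each of the 9 libraries (horizontal axes). Notch2 fills most of the receptor bars of CD49f-neg and Notch3 those of CD49f-high, while Dll1 takes 45.9% to 49.8% of the ligand bars in CD49f-low and at most 22.1% elsewhere.

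The order of the levels also changed between gates. In CD49f-neg it was Notch2, Notch3, Notch1, Jag1, Dll1, Jag2, Dll4 and Notch4. Of the neighbours there, Notch3 and Notch1, Notch1 and Jag1, and Jag2 and Dll4 overlapped in their libraries. In CD49f-low the order was Notch2, Notch3, Dll1, Jag1, Notch1, Jag2, Dll4 and Notch4, where the members from Notch3 to Notch1 overlapped each with the next, as did Jag2 with Dll4. In CD49f-high it was Notch3, Jag1, Notch2, Notch1, Dll1, Jag2, Dll4 and Notch4, and Dll1 and Jag2 were the neighbours that overlapped. Of the members, 3 lie on chromosome 2 (Notch1, Dll4 and Jag1) and 3 on chromosome 17 (Notch3, Notch4 and Dll1).

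The genes with the most similar patterns were taken from 5579 rows (5580 for Jag2) with 1 symbol and at least 5 FPKM in some gate, by the Pearson correlation of log2(FPKM + 1) over the 9 libraries. These correlations rest largely on the differences between the gates that all genes share and are a description. Those of Notch3 were Mprip, a myosin phosphatase partner (r = 0.996), Itpr1, a calcium release channel (0.996), and Rgs5, a marker of pericytes (0.995), whose means were 0.249, 10.5 and 356 FPKM in the negative, low and high gates. Those of Dll1 were the melanin synthesis gene Dct (0.996), the melanosome gene Pmel (0.996) and Inhba, a subunit of activin (0.995). Dct averaged 0.171, 170 and 3.47 FPKM and Inhba 2.24, 27.2 and 4.72. Notch2 was most like Slc1a4, an amino acid transporter (0.992), Ubtd2 (0.992) and the matrix protease Mmp2 (0.986), which averaged 178, 99.2 and 46.6 FPKM. Jag1 was most like Tm4sf1 (0.992), Pawr (0.992) and the adhesion protein α-catenin, Ctnna1 (0.991). Notch1 was most like the basement membrane proteoglycan Agrn (0.987), Sh3bp5 (0.985) and the protease inhibitor Serpine2 (0.984). Jag2 was most like the sorting receptor Sort1 (0.971), Itga6 itself (0.969) and Ctnna1 (0.969).

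Markers of other cell types moved with several members, and their part in these results was not tested. The mural cell list (11 genes, Rgs5, Acta2, Myh11 and Cspg4 among them) summed to 51.1 to 63.5 FPKM in the negative gate, 102 to 177 in the low and 779 to 1401 in the high gate. Of its 11 genes, 11 were called upward from the negative to the high gate, 9 from low to high and 5 from negative to low. Of all tested rows, 13.9%, 5.93% and 12.8% were called higher in these comparisons. Higd1b, among the genes called upward to the high gate, reached 1 FPKM only in CD49f-high, so it passed the filter through that gate. CD49f-high replicate 2, the lowest of its gate in Notch3, was also the lowest in this sum, and CD49f-low replicate 3, the highest of its gate in Notch3, was the highest. No gene of the list was at 0 throughout a gate. Notch3 without CD49f-high replicate 2 was called in all 3 comparisons. Beside Notch2, the fibroblast list (8 genes, Col1a1, Col1a2, Col3a1 and Pdgfra among them) summed to 13969 to 17009, 5602 to 6863 and 4039 to 6055 FPKM in the 3 gates. Of the 8 genes, 7 were called lower in low and 8 lower in high than in negative, against 2.62% and 8.27% of all tested rows. From low to high 4 were called lower and 4, Col1a1 among them, were not called, while 10.5% of all tested rows were called lower.

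Beside Dll1, the melanocyte list (8 genes, Pmel, Dct, Tyrp1 and Tyr among them) summed to 2.67 to 4.12 FPKM in the negative gate, 439 to 534 in the low and 22.6 to 53.8 in the high gate. All 8 were called higher in CD49f-low than in CD49f-neg, and 7 of 8 fell from low to high. The exception was Sox10, which is also a Schwann cell marker and stood at 7.46, 32.5 and 44.9 FPKM in the CD49f-high libraries. Without it the sums were 2.58 to 4.03, 418 to 512 and 8.82 to 17.3 FPKM. The dermal papilla list (10 genes, Sox2, Corin, Alpl and Notum among them), for the cell cluster at the base of the hair follicle, summed to 52.8 to 61.6, 195 to 223 and 34.2 to 51.3 FPKM. Of these 10 genes, 9 were called higher in CD49f-low than in CD49f-neg and 10 fell from low to high. Between CD49f-high and CD49f-neg the list was split, so the sums do not give the direction of each gene. Sox2, Corin, Alpl and Notum were called higher in CD49f-high and 4 others lower, against 13.9% and 8.27% of all tested rows. Of all tested rows, 12.8% were called higher in CD49f-low than in CD49f-neg and 10.5% lower from low to high. The same shares stand beside the melanocyte and muscle counts. Within CD49f-high, Dll1 was lowest in replicate 3, where the dermal papilla sum and the melanocyte sum without Sox10 were also the lowest, while the melanocyte sum with Sox10 was the highest. The keratinocyte sum and the muscle sum without Des, both given below, were lowest in that library too. Within CD49f-low the orders differed. There Dll1 rose from replicate 1 to 3, the melanocyte sum was 439, 534 and 513 FPKM and the dermal papilla sum 199, 195 and 223. Skeletal muscle precursor markers also were highest in the low gate, where Pax7, Myod1, Myf5 and Myog averaged 1.16, 2.49, 1.44 and 5.91 FPKM. They averaged at most 0.0351 FPKM in the negative gate, where Myod1 and Myf5 were listed at 0 in every library, and 0.0551, 0.123, 0.0946 and 0.769 in the high gate. Of the 6 genes of that list tested, 5 were called higher in low than in negative and 4 fell from low to high. Myod1 and Myf5 reached 1 FPKM only in the CD49f-low libraries, as did Tyr of the melanocyte list and Prom1 of the dermal papilla list. Myog and Cdh15 of the muscle list reached it there and in CD49f-high replicate 1 (1.33 and 1.05). A difference between the gates was thus built into the way these genes passed the filter. The sum of the muscle list without Des, which is on the mural list too, was 0.828 to 1.51, 14.0 to 21.6 and 2.32 to 5.51 FPKM.

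**Figure D4:**
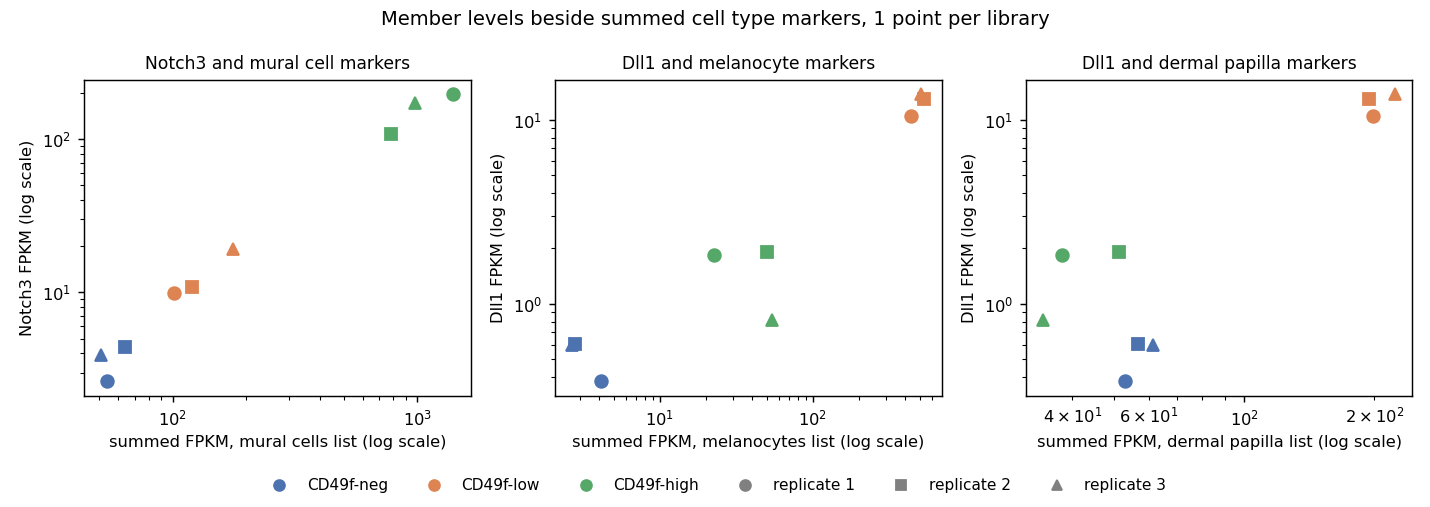
Notch3 FPKM against the summed FPKM of mural markers, and Dll1 FPKM against those of melanocyte and dermal papilla markers, on log axes, with 1 point per library coloured by gate and shaped by replicate number. Notch3 and the mural sum are both highest in CD49f-high (779 to 1401 summed FPKM), and the CD49f-low libraries lie at the upper right of both Dll1 panels. The melanocyte sum includes Sox10.

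The endothelial markers are given beside Dll4, Notch4 and Jag2. The blood endothelium list (12 genes, of which 8 reached the filter) summed to 3.96 to 6.10 FPKM in the negative gate, 11.6 to 14.1 in the low and 25.5 to 44.6 in the high gate, the order seen in Dll4 and Jag2. Of the 8 tested, 3 were called higher in low than in negative, against 12.8% of all tested rows. From negative to high 5 were called higher, against 13.9%. From low to high 2 rose, against 5.93%, 1 fell, against 10.5%, and 5 were not called. Its defining genes Pecam1 and Cdh5 averaged 0.215 and 0.0785 FPKM in the negative libraries, 0.351 and 0.508 in the low and 0.953 and 5.30 in the high ones. Cdh5 was listed at 0 in CD49f-neg replicate 2 and passed the filter through the CD49f-high libraries alone, and Pecam1 did not reach the filter. Kdr averaged 0.690, 3.62 and 1.49 FPKM and fell from low to high (limma adjusted p = 0.00612), and Tek averaged 1.52, 1.64 and 1.79 FPKM. In the high gate, this sum and Dll4 were lowest in replicate 2, Notch4 was lowest in replicate 1, and Jag2 was highest in replicate 2. Of the lymphatic endothelium list (5 genes), Lyve1 averaged 0.0550, 0.653 and 7.40 FPKM, Flt4 0.0195, 0.258 and 2.44, and Prox1 0.139, 0.876 and 1.12. Of its 4 genes tested, 3 were called higher and 1 lower (Pdpn) in high than in negative, against 13.9% and 8.27% of all tested rows. The 3 called higher, Lyve1 and Flt4 among them, reached 1 FPKM only in CD49f-high, so they passed the filter through that gate. The sum of the lymphatic list without Pdpn was 0.0940 to 0.360, 1.55 to 2.32 and 6.51 to 23.1 FPKM. The Schwann cell list (10 genes, Sox10 shared with melanocytes) summed to 5.84 to 6.67 FPKM in CD49f-neg and 51.5 to 63.4 in CD49f-low. In CD49f-high it stood at 53.5, 205 and 253 FPKM in replicates 1, 2 and 3. Jag1 and Notch1 varied there by an SD of 0.173 and 0.704 FPKM, and any link of these members to the Schwann cell list was not tested. Keratinocyte markers (10 genes on 9 rows, since Krt14 and Krt15 share a joined row) summed to 2.38 to 3.50 FPKM in the negative gate, 30.3 to 32.5 in the low and 23.2 to 53.8 in the high gate. Cdh1, named after its values were seen, averaged 18.7 FPKM in the low gate and 3.54 in the high. Without it the sums were 2.37 to 3.40, 8.63 to 16.2 and 21.2 to 49.3 FPKM. Of the 9 listed genes tested, Krt14 and Krt15 counted separately, 6 rose from low to high, against 5.93% of all tested rows. Epcam, among these 6, reached 1 FPKM only in CD49f-high, so it passed the filter through that gate.

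Of 47 other genes of the pathway, 42 were tested, and 8 were called higher and 0 lower in low than in negative, 10 higher and 0 lower in high than in negative, and 4 higher and 3 lower in high than in low. These are 19%, 23.8% and 16.7% of those tested, near the 15.4%, 22.1% and 16.4% of all tested rows. Their median log2 differences were 0.25, 0.14 and -0.09, beside 0.21, 0.07 and -0.15 for all rows. Of the genes called, Nrarp, Maml3 and Dtx1 were below 1 FPKM in every CD49f-neg library. A difference between the gates was thus built into the way they passed the filter. With the replicate block the called genes numbered 14 higher and 0 lower for low against negative, 13 higher and 2 lower for high against negative, and 8 higher and 7 lower for high against low. The lack of lower calls also depended on scaling. After median-of-ratios scaling the divergent ligand Dlk1 was called lower in low than in negative (-0.75 log2 units, limma adjusted p = 0.0377). In high against negative, pathway genes were called lower after that scaling and after quantile normalization (limma adjusted p down to 0.0240). Of the 47, 7 lie on rows joined with another gene, and none of the genes named here as called does.

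Called differences above 2 log2 units were all of target genes, of which 6 were tested. Nrarp, a target that feeds back on Notch activity, stood at 0.473, 0.900 and 0.483 FPKM in the negative libraries, 5.15, 4.24 and 7.59 in the low and 107, 30.8 and 46.9 in the high ones. It rose at both steps, by 2.02 (limma adjusted p = 0.00761) and 3.07 log2 units (adjusted p = 0.000594), and its CD49f-high libraries were unequal, with replicate 1 highest. The repressor Heyl, known from smooth muscle, averaged 2.11 ± 0.785, 5.16 ± 3.58 and 13.4 ± 0.458 FPKM and rose from negative to high by 2.25 log2 units (adjusted p = 0.00185). Hey1 averaged 2.70 ± 0.321, 11.8 ± 1.44 and 3.94 ± 0.176 FPKM, highest in the low gate, and fell by 1.36 log2 units from low to high (adjusted p = 8.95e-05). Hey2 averaged 1.23 ± 0.271, 8.64 ± 1.32 and 5.14 ± 0.897 FPKM, and rose by 2.11 log2 units from negative to low (adjusted p = 3.26e-05). Its fall of 0.65 from low to high (adjusted p = 0.0181) was lost after median-of-ratios scaling (0.0578) and without CD49f-low replicate 2 (0.0569) or 3 (0.0796), or CD49f-high replicate 2 (0.0556) or 3 (0.0684). Hes1 stood at 31.8, 11.7 and 9.26 FPKM in CD49f-neg and between 26.8 and 32.6 in all other libraries. It was not called in any comparison, and without CD49f-neg replicate 1 it was called from negative to low (0.000346) and from negative to high (9.60e-05).

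The genes that act on receptor and ligand are given by role. Of 8 genes of shedding and γ-secretase, 3 were called upward from the negative to the high gate (37.5%, against 13.9% of all tested rows). These were the protease Adam10 (13.6 ± 1.54 to 27.9 ± 7.27 FPKM, limma adjusted p = 0.0112) and the γ-secretase subunits Aph1b and Psen2, of which Psen2 was also called from negative to low. The call of Psen2 from negative to high was lost after quantile normalization (0.0560) and without any of the CD49f-neg libraries (up to 0.0992), and that from negative to low after either scaling (up to 0.0644) and without CD49f-neg or CD49f-low replicate 2 or 3 (up to 0.0799). The core subunit Ncstn averaged 16.2, 17.3 and 18.2 FPKM and was not called. Lfng, the Fringe enzyme that modifies Notch sugars and so shifts the receptor's response between Delta-like and Jagged ligands, averaged 5.58 ± 1.09, 8.66 ± 0.526 and 4.81 ± 1.13 FPKM. It fell by 0.75 log2 units from low to high (adjusted p = 0.0155), a call lost after median-of-ratios scaling (0.0527) and without CD49f-low replicate 3 (0.0627). From negative to low it missed the threshold (0.0537) and passed with the replicate block (0.0158). Neurl1b, a ligase of ligand endocytosis, rose by 1.29 log2 units from low to high (adjusted p = 0.000252), to 6.98 ± 0.837 FPKM. In the nuclear complex, Maml3 rose at both steps, from 0.619 ± 0.114 to 1.69 ± 0.263 and 3.34 ± 0.521 FPKM, though the step from negative to low was lost after quantile normalization (0.0811). The DNA-binding partner Rbpj, named after its values were seen, averaged 3.05, 2.34 and 2.53 FPKM and was not called in any of the 3 comparisons, though it was called lower from negative to low after quantile normalization (-0.51 log2 units, 0.0423). Mib1 and Fbxw7 were called upward from negative to low (0.46 and 0.53 log2 units), and both calls were lost after either scaling (0.247 and 0.207 with quantile normalization). Single libraries also decided them: Mib1 was lost without any of the CD49f-neg libraries, CD49f-low replicate 1 or 3, or CD49f-high replicate 2 (up to 0.128), and Fbxw7 without CD49f-neg replicate 2 or 3 or any of the CD49f-low libraries (up to 0.0810).

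**Figure D5:**
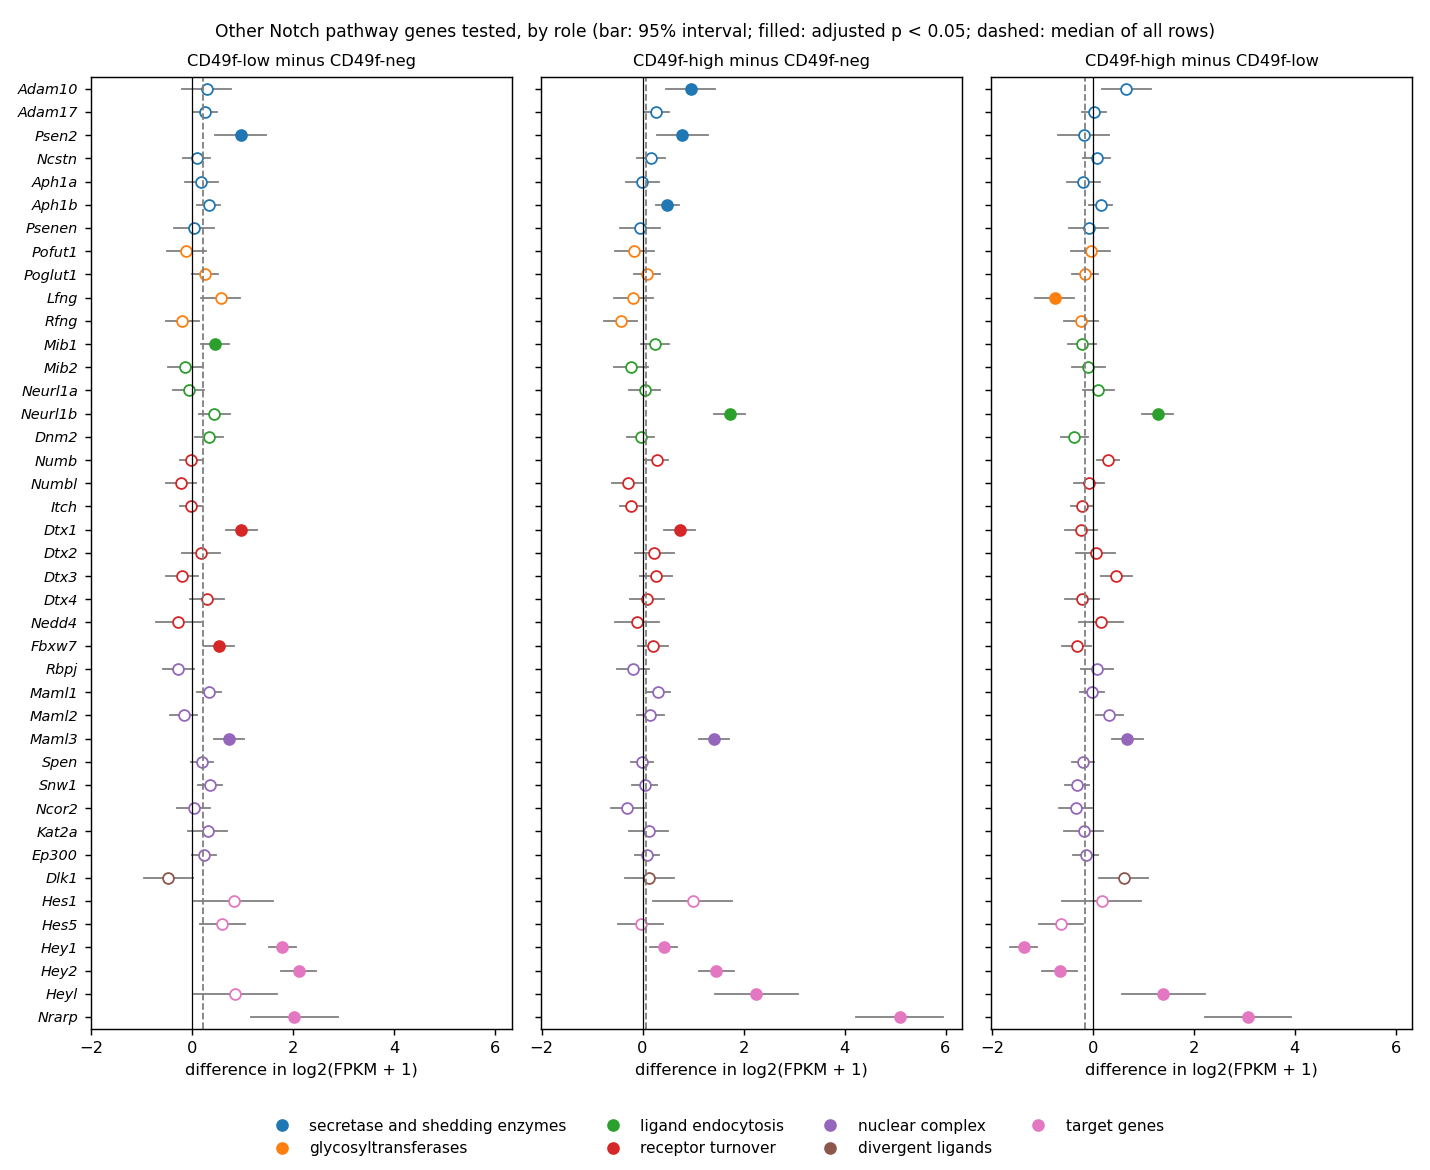
Differences between gates in log2(FPKM + 1) of the other pathway genes tested, with 1 left out (points with 95% intervals), coloured by role, with filled points for an adjusted p under 0.05 and the median of all rows dashed. Nrarp lies furthest to the right from negative to high (5.09), Hey1 and Hey2 lie to the right of 0 in the first panel and to the left in the third, and Rbpj is open in every panel.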

How the data were processed

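RNA sequencing gave 9 libraries, whose titles name the gate. The authors deposited 1 table of FPKM values with a column per library. FastQC, TopHat2, StringTie and the build GRCm38 are named, per the submitters' processing notes, without versions, order or filters. Libraries came from the NEBNext Ultra kit, per the labels' protocols, and the strand is not stated. Of 84809 rows, 1002 carry 2 or more symbols, and no member shares its row with another symbol. FPKM were used as deposited. Rows with at least 1 FPKM in at least 3 libraries (20523) entered limma 3.58.1 in R 4.3.3 as log2(FPKM + 1), with a group means model and a trended empirical Bayes test. The two-sided p-values were Benjamini-Hochberg adjusted across every tested row. As alternatives, the fit was repeated with no filter, a stricter filter (5 FPKM), a pseudocount of 0.1, median-of-ratios scaling, quantile normalization, the replicate number as a block, no trend, a fit on the 6 libraries compared, each library left out, and, chosen after seeing the data, leaving out replicate 1 of every gate. Also chosen after seeing the data were marker sums without Sox10, Cdh1, Des or Pdpn. Same-numbered libraries deviated together (9 pairs, correlation of deviations from gate means 0.252 to 0.520, against -0.453 to 0.118 for 18 other pairs). Deviations cancel within a gate, so positive values in same-numbered pairs push the other pairs negative, and the 18 are no independent background. The values thus pair the numbers, though the labels name no source of the pairing. The fit was tested on simulated data. Overlaps came from GENCODE M21 (GRCm38) and promoter windows from RefSeq (GRCm38.p6), with all 8 members matched. All members, pathway genes called in a comparison or above 10 FPKM in a gate, and the first 4 markers of a list could be named, with the 3 most correlated genes per tested member. Higd1b, Prom1, Cdh15, Epcam and the list sums of single replicates were named after their values were seen. Members and lists were chosen with earlier results of these data known. Tables were handled in Python 3.11.15 with pandas 2.3.3. The result of 1 pathway gene is not reported here by name. Sequence reads were not used here.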

Additional observations from a re-analysis of the deposited data

How the results depend on the processing

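Of 18 tested differences of members, 0 changed direction in the 18 alternatives, and of the 15 called, 12 were called in every alternative that tested the gene. The 3 others were Dll1 between high and negative (adjusted p up to 0.152, without replicate 1 of every gate), Jag2 between low and negative and Notch2 between high and low (up to 0.0777, also without replicate 1 of every gate). Of the 3 not called, Notch2 (low against negative) and Jag2 (high against low) passed in some alternatives. Jag2 had no value under the stricter filter. The number of members called was 5, 6 and 4 in the 3 comparisons, and 5, 5 to 6, and 3 to 4 with 1 library left out. The replicate block, which uses the pairing of libraries by number, changed the call of no member other than Notch2.

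Counts over all rows depended on the setting. For low against negative, 3160 rows were called, with 1358 under the stricter filter, 2044 after quantile normalization, 5806 with the replicate block and 1614 to 3764 with 1 library left out. For high against negative, 4541 were called, and 1911 under the stricter filter. For high against low, 3367 were called, with 1323 under the stricter filter, 5309 with the replicate block and 2201 to 3585 with 1 library left out. The stricter filter tested 7340 rows. Of pathway genes, 8, 10 and 7 were called. For low against negative this was 5 after quantile normalization, 14 with the replicate block and 5 to 10 with 1 library left out. For high against negative it was 6 under the stricter filter, and for high against low 11 after quantile normalization, 15 with the replicate block and 4 to 9 with 1 library left out. The cause of these shifts was not tested. Depth limits Notch4 most, at an estimated 39 fragments or fewer per library.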
